A study of Mus musculus with 4 samples.

Results

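The blood transcription factors described here were 10 genes, *Gata1*, *Klf1*, *Gfi1b*, *Zfpm1*, *Nfe2*, *Tal1*, *Lyl1*, *Gata2*, *Ikzf1* and *Bcl11a*. They were taken by name, as all rows of the arrays that measured a transcript and carried one of these gene names, which gave 19 of 56605 probes and 10 of 24729 named genes. RNA of whole mouse embryos (C57BL/6J, given as C57BL/6 with the arrays) was hybridized to 4 one-colour arrays, with 1 array for each genotype (WT or *Dyrk2*-/-) and each stage (E8.5 or E10.5, the embryonic day). The *Dyrk2*-/- line carries short deletions within a kinase gene, made with the CRISPR/Cas9 nickase system, and its alleles are of 3 kinds. The paper reports loss of the Dyrk2 protein in later embryos. The sources used here do not say which allele or how many embryos each RNA came from. The comparison asks which genes differ when *Dyrk2* is disrupted, early in the formation of the organs. There were no replicates, so that a difference between 2 arrays carries neither an error between embryos nor a p-value.

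The first red cells of the mouse embryo form in blood islands of the yolk sac and enter the circulation while the heart begins to beat. *Tal1*, *Lyl1* and *Gata2* act in the progenitors of blood and in endothelium, and *Gata1* with its cofactor *Zfpm1* (FOG-1) and with *Klf1*, *Gfi1b* and *Nfe2* then drives the erythroid and megakaryocytic programs, including the globin genes. *Ikzf1* and *Bcl11a* are best known from lymphoid cells, and *Bcl11a* also represses embryonic and fetal globin genes and is used in neurons.

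Each value is log2 of the spot intensity minus the 75th percentile of its array, so that 0 is the level below which 3 in 4 probes of the array lie. A probe was called well above background where the scanner software marked it so, and the lowest such value was −4.82 on the E8.5 WT array, −4.53 on the array labelled *Dyrk2*-/- E8.5, −4.72 on the E10.5 WT array and −4.77 on the array labelled *Dyrk2*-/- E10.5. Of the 19 probes, 17 were well above background on at least 1 array, 7 on all 4 and 2 on none. Each member probe was a single spot on an array, and the scanner's modelled error of a value well above background had a median of 10.03% and reached 21.7%.

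*Dyrk2* itself was read first, as the gene that the labels name. Its brightest probe measured 0.06 on the E8.5 WT array, 0.76 on the array labelled *Dyrk2*-/- E8.5, −0.31 on the E10.5 WT array and 0.34 on the array labelled *Dyrk2*-/- E10.5. It was therefore 1.62-fold higher at E8.5 and 1.57-fold higher at E10.5 on the arrays with the knockout label. This probe was higher under each scaling tried, though by only 0.15 (log2) at E8.5 under spike-in scaling. The other probe was 1.02-fold and 1.21-fold higher, and its direction at E8.5 turned under spike-in scaling and without scaling. A probe outside the deleted part checks nothing, and where these probes lie relative to it was not tested, so that the genotype of the arrays, and each direction given below, rests on the labels. The paper lists PCR primers for *Gata1*, *Gfi1b*, *Lyl1*, *Zfpm1* and *Ikzf1* and gives relative expression of erythrocyte and lymphocyte genes at E10.5 (n = 3). It states that such genes tended to rise or fall in *Dyrk2*-/- embryos. Whether that RNA came from the embryos of these arrays is not stated. The arrays also differed in sex chromosome transcripts. *Xist*, the transcript of the inactive X chromosome, was well above background on the array labelled *Dyrk2*-/- E10.5 alone, at −0.37, and the Y-linked transcripts *Uty*, *Kdm5d*, *Eif2s3y* and *Ddx3y* exceeded background on each of the remaining 3 arrays but not there. The genotypes at E10.5 and the sex chromosomes of the embryos therefore cannot be told apart.

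At E8.5, 6 of the 9 members that could be compared were 1.5-fold or more higher on the array labelled *Dyrk2*-/- and 0 were lower, or 5 higher (4 by their bounds) and 1 lower, *Gata2*, under spike-in scaling. Over all 15789 genes that could be compared, 4.24% were higher and 5.43% were lower by this threshold. The members higher were *Gata1*, *Klf1*, *Gfi1b*, *Nfe2*, *Lyl1* and *Ikzf1*, and 3 of them rest on a bound because the WT array did not measure them well above background. At E10.5, 8 of 10 were higher, all but *Gata2* and *Bcl11a*, and 1, *Bcl11a*, was lower, beside 2.77% higher and 4.01% lower of 16122 genes. Between stages, 8 of 10 were higher at E10.5 in WT, all but *Zfpm1* and *Tal1*, where 19.3% of genes were higher and 18.3% lower. Without *Gata2*, 7 were higher in WT with quantile normalization, spike-in scaling, normexp and the deposited table. On the arrays labelled *Dyrk2*-/-, 7 of 10 were higher at E10.5, all but *Zfpm1*, *Tal1* and *Gata2*, where 17.1% of genes were higher and 14.3% lower. With *Tal1*, 8 were higher with quantile normalization, with the deposited table and without scaling, and all 10 under spike-in scaling, where 49.0% of genes were. The 4 comparisons share arrays, so that a low value on 1 array enters 2 of them. Spike-in scaling moves all genotype differences by −0.55 (log2) at E8.5, so that a rise under 1.46-fold turns and 48.7% of all genes are lower by the threshold, and by 0.16 at E10.5, so that a fall under 1.12-fold turns, and without scaling rises under 1.195-fold and 1.096-fold turn at the 2 stages. In RNA of whole embryos, fewer cells of a type and less RNA per cell cannot be told apart.

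**Figure D1:**
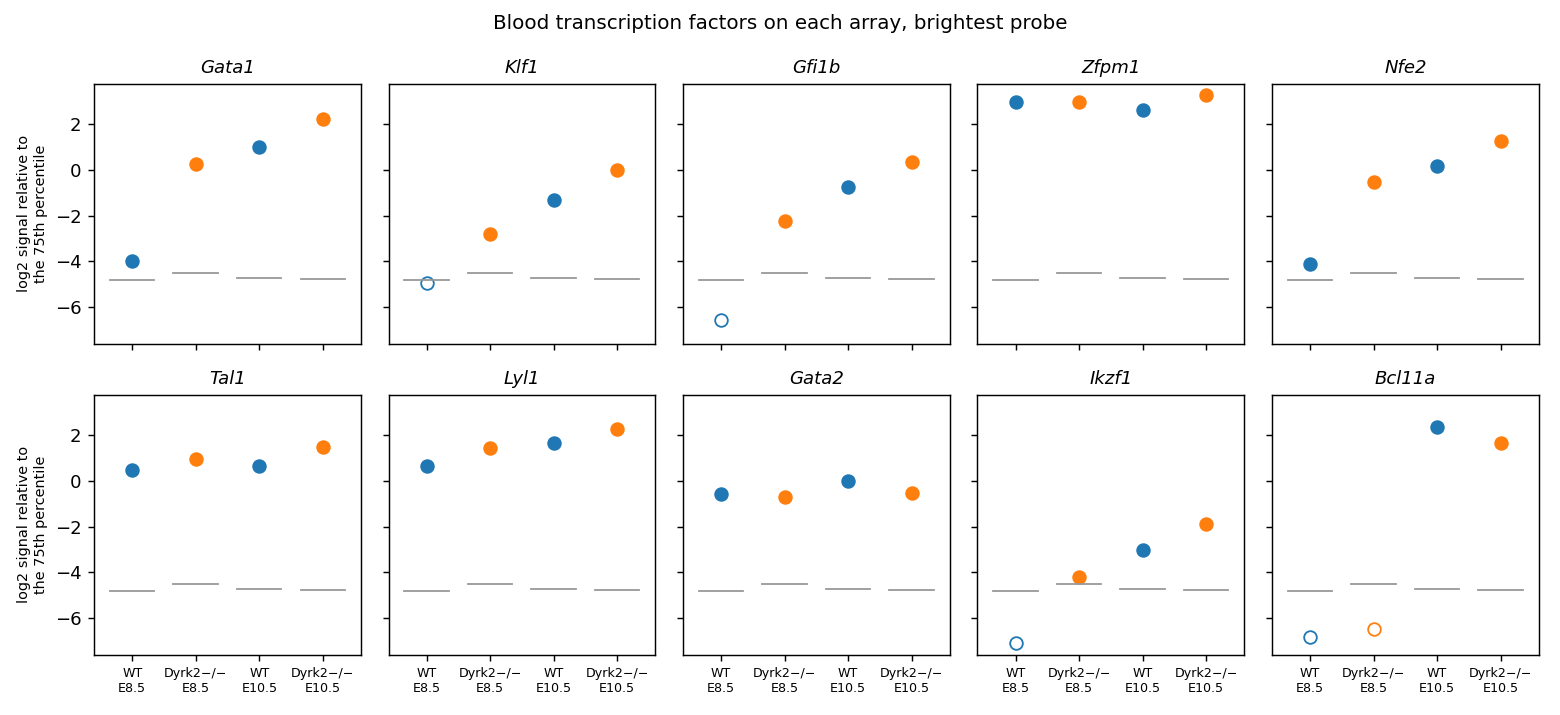
Level of each blood transcription factor at its brightest probe on the 4 arrays, as log2 signal relative to the 75th percentile of the array. Filled circles are well above background, open circles are not, and grey lines mark the lowest value well above background on each array. *Gata1* goes from −4.01 on the E8.5 WT array to 2.21 on the array labelled *Dyrk2*-/- E10.5, while *Zfpm1* stays between 2.64 and 3.25.

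*Gata1*, the X-linked zinc finger factor that red cell precursors cannot do without, had 1 probe (mm9, chromosome X, 7536392 to 7536451). It measured −4.01 on the E8.5 WT array, 0.26 on the array labelled *Dyrk2*-/- E8.5, 0.98 on the E10.5 WT array and 2.21 on the array labelled *Dyrk2*-/- E10.5. The WT E8.5 array was far below the other 3. *Gata1* was 19.3-fold higher on the array labelled *Dyrk2*-/- at E8.5 (5.94-fold with normexp, a background correction that draws dim values together) and 2.35-fold higher at E10.5. It rose 31.8-fold from E8.5 to E10.5 in WT (3.25 on the log2 scale with normexp) and 3.87-fold between the arrays labelled *Dyrk2*-/- (1.95 on the log2 scale, 2.59 under spike-in scaling). On the log2 scale the array labelled *Dyrk2*-/- E8.5 lay at 85.6% of the way from the WT E8.5 to the WT E10.5 array. This share rests on the low WT E8.5 value and was smaller under spike-in scaling and with normexp. The differences behind it, 4.27 and 4.99 (log2), were 3.72 and 4.92 under spike-in scaling and 2.57 and 3.25 with normexp. At E10.5, where the arrays differed in *Xist*, the median log2 difference of the 554 X-linked genes compared was −0.03, beside −0.02 for all genes.

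*Nfe2*, the p45 subunit of a factor that binds the globin control regions and is needed for platelets, followed the same order of arrays (1 probe, mm9, chromosome 15, 103078729 to 103078788). It measured −4.12 on the E8.5 WT array, −0.54 on the array labelled *Dyrk2*-/- E8.5, 0.16 on the E10.5 WT array and 1.25 on the array labelled *Dyrk2*-/- E10.5. It was 11.98-fold higher with the knockout label at E8.5 (3.55-fold with normexp) and 2.14-fold higher at E10.5. The array labelled *Dyrk2*-/- E8.5 lay at 83.8% of the way from WT E8.5 to WT E10.5, a share that was again smaller in those settings. The differences behind it, 3.58 and 4.28 (log2), were 3.04 and 4.21 under spike-in scaling and 1.83 and 2.50 with normexp.

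*Klf1*, the erythroid Krüppel-like factor that activates adult beta globin, had 2 probes on chromosome 8. The brighter (mm9, 87428881 to 87428940) was not well above background in WT at E8.5 and measured −2.82 on the array labelled *Dyrk2*-/- E8.5, −1.32 on the E10.5 WT array and −0.00053 on the array labelled *Dyrk2*-/- E10.5. The other probe measured −2.47, −1.35 and −0.10 on these 3 arrays and was likewise not well above background in WT at E8.5. Both probes put the array labelled *Dyrk2*-/- higher, by at least 3.99-fold and at least 5.08-fold at the earlier stage (1.71-fold and 2.03-fold with normexp) and by 2.50-fold and 2.38-fold at the later one. In WT the rise between the stages was at least 11.3-fold (2.88-fold with normexp) and at least 11.1-fold.

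*Gfi1b*, a repressor of red cell and platelet precursors, had 1 probe (mm9, chromosome 2, 28464982 to 28465041). It was not well above background in WT at E8.5 and measured −2.24 on the array labelled *Dyrk2*-/- E8.5, −0.73 on the E10.5 WT array and 0.34 on the array labelled *Dyrk2*-/- E10.5. It was at least 5.96-fold higher with the knockout label at E8.5 (2.01-fold with normexp) and 2.09-fold higher at E10.5. The rise between stages was at least 17.0-fold in WT (3.95-fold with normexp) and 5.99-fold between the arrays labelled *Dyrk2*-/- (2.58 on the log2 scale, 1.86 with normexp and 3.22 under spike-in scaling).

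*Zfpm1*, the cofactor that binds GATA1, was the erythroid member without a low value on the E8.5 WT array. Its brightest probe (mm9, chromosome 8, 124861053 to 124861112) measured 2.95, 2.98, 2.64 and 3.25 on the WT E8.5, labelled *Dyrk2*-/- E8.5, WT E10.5 and labelled *Dyrk2*-/- E10.5 arrays. The 4 values lay close together, with a difference of 0.03 on the log2 scale between the E8.5 arrays and a 1.53-fold higher signal with the knockout label at E10.5, which fell under the threshold without scaling (0.49, log2) and with the mean of its probes (0.41). The direction at E8.5 turned under spike-in scaling and without scaling. The other probe, which was dimmer on each array, was 1.09-fold and 1.14-fold higher at the 2 stages, the former turning under the same 2 settings, and did not reach the threshold.

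*Tal1* and *Lyl1* encode related helix-loop-helix factors of blood progenitors and endothelium. *Tal1* (1 probe, mm9, chromosome 4, 114744219 to 114744278) measured 0.47 on the E8.5 WT array, 0.95 on the array labelled *Dyrk2*-/- E8.5, 0.66 on the E10.5 WT array and 1.502 on the array labelled *Dyrk2*-/- E10.5. *Lyl1* (1 probe, mm9, chromosome 8, 87228531 to 87228590) measured 0.66, 1.44, 1.66 and 2.26 on the arrays in the same order. Both were well above background on all 4 arrays, and in each the array with the knockout label was the higher of its stage. *Tal1* was 1.39-fold higher at E8.5, which did not reach the threshold and turned to −0.07 (log2) under spike-in scaling, and 1.79-fold higher at E10.5. *Lyl1* was 1.72-fold higher at E8.5, which fell under the threshold with spike-in scaling (0.23, log2) and without scaling (0.52), and 1.52-fold higher at E10.5, which did so without scaling (0.47) and, narrowly, with normexp.

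*Gata2*, which maintains blood stem and progenitor cells and gives way to *Gata1* as red cells mature, did not share this order. Its probe (mm9, chromosome 6, 88156835 to 88156894) measured −0.59 on the E8.5 WT array, −0.72 on the array labelled *Dyrk2*-/- E8.5, 0.0091 on the E10.5 WT array and −0.51 on the array labelled *Dyrk2*-/- E10.5. The WT E10.5 array was the highest and the other 3 lay within a narrow range. *Gata2* was 1.09-fold lower with the knockout label at E8.5 and 1.44-fold lower at E10.5, both under the threshold, and was lower under each scaling tried, past it at E8.5 with spike-in scaling and at E10.5 without scaling. It was 1.52-fold higher at E10.5 than at E8.5 in WT, which fell under the threshold in 4 of 6 alternatives, to 0.48 to 0.58 (log2).

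*Ikzf1* (Ikaros) had 4 probes on chromosome 11, of which 1 was well above background on more than 1 array. That probe (mm9, 11671462 to 11671521) was not well above background in WT at E8.5 and measured −4.18 on the array labelled *Dyrk2*-/- E8.5, −3.00 on the E10.5 WT array and −1.89 on the array labelled *Dyrk2*-/- E10.5. It was at least 1.56-fold higher with the knockout label at E8.5, a bound that fell under the threshold with spike-in scaling (0.09, log2), without scaling (0.38) and with normexp (0.33), and 2.16-fold higher at E10.5. Of the other probes, 2 were well above background on the array labelled *Dyrk2*-/- E10.5 alone, with bounds of 1.21-fold and 1.02-fold, and 1 on no array.

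*Bcl11a* had 5 probes on chromosome 11 and the opposite direction at E10.5. Its brightest probe (mm9, 24073114 to 24073173) was not well above background on either E8.5 array and measured 2.35 on the E10.5 WT array and 1.64 on the array labelled *Dyrk2*-/- E10.5. The stage difference was at least 144-fold in WT and at least 71.6-fold between the arrays labelled *Dyrk2*-/-, or 24.97-fold and 12.9-fold with normexp. At E10.5 its 4 measurable probes were 1.64-fold, 1.26-fold, 1.85-fold and 1.53-fold lower with the knockout label, and under spike-in scaling, where the brightest came to −0.55 (log2), only the third of them passed the threshold. At E8.5 a single probe, at −3.54 in WT, was well above background, and it was at least 1.98-fold lower on the array labelled *Dyrk2*-/-, a bound that fell under the threshold with normexp (1.19-fold).

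**Figure D2:**
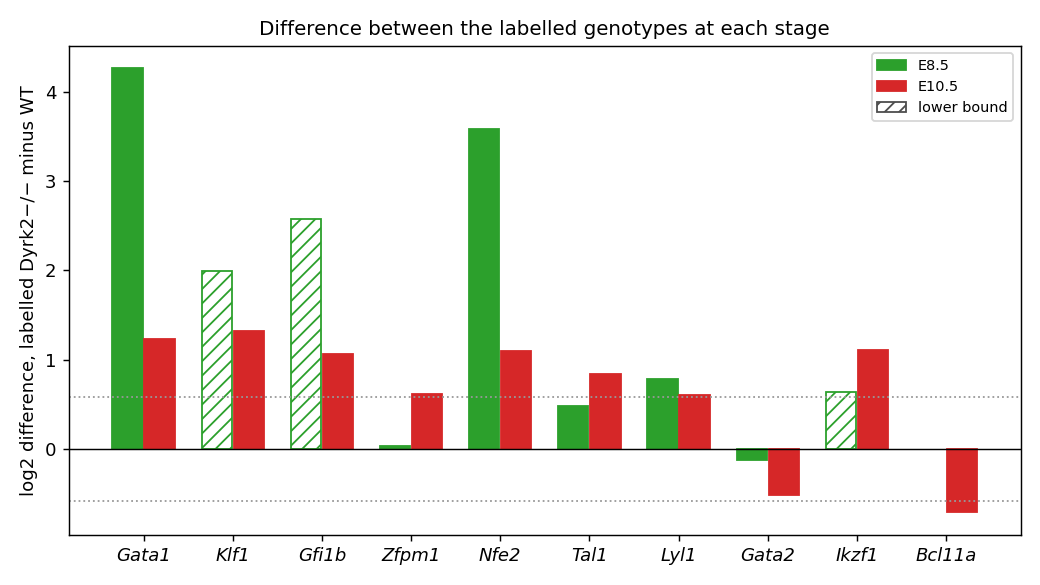
Log2 difference of each member at its brightest probe, the array labelled *Dyrk2*-/- minus WT, at E8.5 (green) and E10.5 (red). Hatched bars are lower bounds, where the WT array was not well above background, dotted lines mark 1.5-fold, and *Bcl11a* has no bar at E8.5 because its brightest probe was below background on both arrays. The bars of *Zfpm1* and *Tal1* at E8.5 change sides under spike-in scaling. *Gata1* reaches 4.27 and *Nfe2* 3.58 at E8.5, and at E10.5 all bars lie between −0.71 and 1.32.

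The median log2 difference of the members was 2.11 at E8.5 over 9 genes, or 0.78 with bounded values at their bound and 0.71 with normexp. At E10.5 it was 0.95 over 10 genes. The medians of all genes compared were −0.03 and −0.02. For members well above background on all 4 arrays, the genotype difference at E10.5 minus that at E8.5 was −3.04 for *Gata1*, −2.49 for *Nfe2*, −0.18 for *Lyl1*, −0.40 for *Gata2*, 0.36 for *Tal1* and 0.59 for *Zfpm1* (log2), and under spike-in scaling those of *Lyl1* and *Gata2* turned to 0.53 and 0.31. With normexp those of *Gata1* and *Nfe2* were −1.39 and −0.90. *Gata1* and *Nfe2* thus had the smaller difference at the later stage, and this change between the stages was not tested, since no residual degree of freedom remains for it.

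The 4 arrays were also fitted together in limma, with stage and genotype as terms and 1 residual degree of freedom. For each probe, that residual holds only how far the gap between the genotypes at E8.5 departs from the gap at E10.5. For *Gata1* these gaps were 4.27 and 1.23 (log2). With 1 array per group, the limma intervals and p-values are therefore no measure of the spread between embryos. For genotype over both stages, limma called 6 of 32289 probes at an adjusted p under 0.05, or 0.0186%, and 0 of the 15 member probes tested. At an unadjusted p under 0.05 there were 10 member probes and 1591 probes in all. The lowest adjusted p of a member was 0.083 in limma, for the brighter *Klf1* probe, with a coefficient of 1.71 (log2, 95% interval 1.19 to 2.24). *Gata1* had a coefficient of 2.75 (1.57 to 3.93) with an adjusted p of 0.21 in limma. For probes not well above background on an array these coefficients use the measured dim values and are no bounds. The calls changed with the processing. The brighter *Klf1* probe was called with quantile normalization, with the deposited table and without scaling, and *Gata1* under spike-in scaling and without scaling. For stage over both genotypes, limma called 11 of the 15 member probes, all higher at E10.5. Of all 32289 probes it called 35.2%, with 5060 higher and 6321 lower. The member probes not called for stage were those of *Gata2* and *Tal1* and both of *Zfpm1*.

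Other transcription factors of blood cells were followed in a list of 33 partners and paralogs, of which 27 were compared for E8.5 and 30 for E10.5. At the earlier stage 0 were higher and 1 was lower, *Hhex*, by 1.82-fold. At the later stage 2 were higher, *Nfix* by 1.94-fold and *Etv2* by 1.68-fold, and 2 were lower, *Gfi1* by 1.67-fold and *Bcl11b* by 1.55-fold, but none of the 4 passed with normexp and neither fall did with spike-in scaling. Their medians were −0.03 at both stages (log2), and under spike-in scaling −0.57, with 13 lower as were 48.7% of all genes, and 0.13, while quantile normalization put the first at 0.0069. *Kdm1a*, the brightest of them and a demethylase that works with GFI1B, measured 5.51, 5.35, 5.08 and 5.12 on the WT E8.5, labelled *Dyrk2*-/- E8.5, WT E10.5 and labelled *Dyrk2*-/- E10.5 arrays. *Spi1*, *Runx2* and *Runx3* were well above background on no array.

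Red cell genes known as targets of GATA1 or KLF1 gave larger counts. Of the 24 listed, 23 were on the array, and 11 of 21 compared at E8.5 and 14 of 23 at E10.5 were 1.5-fold or more higher with the knockout label, with 0 lower at either stage and medians of 1.11 and 0.78 (log2). The medians stayed above 0 under each scaling tried, and at E8.5 spike-in scaling gave 10 higher and 2 lower. *Hbb-bh1*, an embryonic beta-type globin gene and the brightest of the list by mean linear signal of the 4 arrays though not at E10.5, measured 3.37 on the E8.5 WT array, 7.15 on the array labelled *Dyrk2*-/- E8.5, 8.19 on the E10.5 WT array and 8.40 on the array labelled *Dyrk2*-/- E10.5. The largest rise at E8.5 was that of *Hbb-y*, another embryonic globin gene, at 63.8-fold, and its difference at E10.5 was 1.02-fold. The largest falls were *Kel* at E8.5 (1.44-fold) and *Bcl2l1* at E10.5 (1.07-fold, turning under spike-in scaling). The summed linear signal of the list was 126, 386, 948 and 1164 on the WT E8.5, labelled *Dyrk2*-/- E8.5, WT E10.5 and labelled *Dyrk2*-/- E10.5 arrays.

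Markers of the other blood lineages did not give such counts. Of 12 megakaryocyte and platelet genes, 3 could be compared for E8.5 and 12 for E10.5, and 0 passed the threshold at either stage, though 1 of the 3 was lower at E8.5 under spike-in scaling and without scaling, where their median of 0.10 (log2) turned to −0.44 and −0.15, and the median of 0.01 at E10.5 turned to −0.12 without scaling. *Pf4*, the brightest by mean linear signal of the 4 arrays, was below background on both E8.5 arrays and measured 2.67 and 2.44 on the WT and labelled *Dyrk2*-/- E10.5 arrays. Their widest differences with both arrays well above background were those of *Itga2b*, 1.28-fold higher at E8.5 (lower under spike-in scaling) and 1.21-fold higher at E10.5, and *Gp1ba*, 1.22-fold lower at E10.5. Of 13 macrophage and leukocyte genes, 1 of 8 was higher at E8.5, on a bound, and 2 of 13 were lower at E10.5, led by *Tyrobp* at 1.64-fold, with 0 lower there under normexp, or 4 of 8 lower at E8.5, a share near that of all genes (48.7%), and 0 at E10.5 under spike-in scaling, and 4 of 8 lower at E8.5 without scaling, beside 14.1% of all genes. *Ptprc*, the brightest, was 1.14-fold and 1.06-fold higher, both turning without scaling, and the largest fall at E8.5 was that of *Cd14* (1.39-fold).

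*Tal1*, *Lyl1* and *Gata2* are also transcribed in endothelium, and all 12 endothelial markers were well above background on all 4 arrays. At E8.5, 2 of them were 1.5-fold or more higher with the knockout label, led by *Cldn5* at 1.85-fold, or 0 under spike-in scaling and 1 without scaling or with normexp, with a median of 0.24 (log2) that turned to −0.31 under spike-in scaling and −0.02 without scaling, and at E10.5 0 passed the threshold, with a median of −0.08, which spike-in scaling turned to 0.08. All 12 were higher at E8.5 at any size, so that there was no fall, but under spike-in scaling those under 1.46-fold turn. *Egfl7*, the brightest, was 1.02-fold and 1.05-fold higher, both turning without scaling. At E10.5 the widest differences were *Flt1*, 1.17-fold higher, and *Esam*, 1.23-fold lower.

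*Bcl11a* is transcribed in neurons too, and 13 neuronal markers were set beside it. At E10.5, 3 of 13 were 1.5-fold or more lower with the knockout label and 0 were higher, with a median of −0.50 (log2) that stayed below 0 under each scaling tried, while the count lower was 1 with spike-in scaling, 5 with quantile normalization and 8 without scaling. There was no rise of any size. The largest fall was that of *Nefl*, a neurofilament gene, at 1.83-fold, and *Stmn2*, the brightest, was 1.53-fold lower. Their summed signal was 23.2, 17.3, 126.9 and 84.2 on the WT E8.5, labelled *Dyrk2*-/- E8.5, WT E10.5 and labelled *Dyrk2*-/- E10.5 arrays, and all 13 were well above background on both E10.5 arrays. At E8.5, 2 of 9 were higher and 1 lower, with *Neurog2* 1.81-fold higher and *Nefm* 2.21-fold lower, and under spike-in scaling 0 were higher and 5 lower and with normexp 0 and 1, so that the *Neurog2* call ended in both. *Gata2* and *Tal1* are used in V2 interneurons of the ventral neural tube, and of 8 such markers 0 passed the threshold at either stage, or 3 of 4 compared were lower at E8.5 under spike-in scaling, as were 48.7% of all genes, and 1 without scaling, as were 14.1%. *Gata3*, the brightest of these, was 1.05-fold and 1.06-fold lower, the latter turning under spike-in scaling, and *Sox14* and *Vsx1* were well above background on no array. The widest differences were *Tal2* (1.38-fold lower) and *Lhx3* (1.21-fold higher) at E8.5 and *Foxn4* (1.31-fold lower) and *Tal2* (1.02-fold higher) at E10.5, of which *Lhx3* turned under spike-in scaling and *Tal2* at E10.5 without scaling.

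Tissues that come with the embryo also differed between the E8.5 arrays. Of 10 yolk sac endoderm markers, 7 were 1.5-fold or more lower on the array labelled *Dyrk2*-/- at E8.5 and 0 were higher, with a median of −0.63 (log2) that stayed below 0 under each scaling tried, and 0 of 9 passed the threshold at E10.5, where *Ttr* was 1.46-fold lower and *Cubn* 1.15-fold higher and where 4 were lower without scaling. The largest fall was that of *Apoc2* (2.20-fold), and *Afp*, the brightest by mean linear signal of the 4 arrays though not at E8.5, was 1.48-fold lower. All 10 were well above background on both E8.5 arrays, and their summed signal was 73.2 in WT and 45.0 on the array labelled *Dyrk2*-/-. In WT, 9 of the 10 were lower at E10.5 than at E8.5. Of 10 decidua and trophoblast markers, 9 were on the array and 2 of 6 compared were higher at E8.5, and 3 lower under spike-in scaling, as were 48.7% of all genes, or without scaling, as were 14.1%, with *Prl8a2* 2.72-fold higher and *Plac1* 1.37-fold lower. *Tpbpa*, *Prl7d1* and *Psg21* were well above background on no array. At E10.5, 1 of 4 was higher, *Ascl2* at 1.74-fold (1.40-fold with normexp, under the threshold), and *Prl3b1* was 1.37-fold lower. The part of these tissues, and of the exact age of the embryos, in the values of the members was not tested.

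The genes whose 4 values, each centred on its own mean, lay near those of *Gata1* included *Nfe2* at a distance of 0.66 (log2), *Hbb-bh1* at 0.91, *Alas2* at 1.39 and *Hba-x* at 1.41. They were among the nearest of 14578 genes well above background on all 4 arrays. For *Gata2* the nearest were *Fitm1* at 0.036, *Avil* at 0.055, *Tm4sf5* at 0.067, *Tecpr1* at 0.067 and *Smad5* at 0.072. With 4 arrays, and the smaller spread of *Gata2*, many genes can lie this near.

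The 250 bases before the transcription start are shown for *Gata1*, *Klf1* and *Gfi1b*, picked as higher together, and for *Gata2*, which was not. They come from RefSeq promoters on GRCm38.p6, which held 9 of the 10 members, all but *Nfe2*, in 12 promoters. Capitals mark the GATA motif, searched as TGATAA with A or T as the first letter and A or G as the last, and the CACCC-type motif of KLF factors, searched as CCNCNCCC, both on both strands. The windows are *Gata1* at chrX:7967911-7968160 (minus strand), *Klf1* at chr8:84901732-84901981 (plus strand), *Gfi1b* at chr2:28621983-28622232 (minus strand) and *Gata2* at chr6:88193641-88193890 (plus strand).
Gata1: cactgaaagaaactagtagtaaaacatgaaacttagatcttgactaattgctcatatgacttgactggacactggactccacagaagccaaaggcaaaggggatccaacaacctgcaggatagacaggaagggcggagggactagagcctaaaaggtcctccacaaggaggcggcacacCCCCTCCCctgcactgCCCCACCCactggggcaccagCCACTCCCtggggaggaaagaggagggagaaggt
Klf1: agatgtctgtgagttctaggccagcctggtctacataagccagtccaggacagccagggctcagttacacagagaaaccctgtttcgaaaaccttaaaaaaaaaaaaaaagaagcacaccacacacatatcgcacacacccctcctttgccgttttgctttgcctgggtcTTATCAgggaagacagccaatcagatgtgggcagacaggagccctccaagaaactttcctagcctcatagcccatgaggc
Gfi1b: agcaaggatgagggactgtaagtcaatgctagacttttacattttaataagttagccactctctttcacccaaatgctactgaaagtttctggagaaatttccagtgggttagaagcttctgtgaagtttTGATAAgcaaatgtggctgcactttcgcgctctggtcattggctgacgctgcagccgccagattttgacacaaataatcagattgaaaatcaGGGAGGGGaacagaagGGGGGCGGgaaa
Gata2: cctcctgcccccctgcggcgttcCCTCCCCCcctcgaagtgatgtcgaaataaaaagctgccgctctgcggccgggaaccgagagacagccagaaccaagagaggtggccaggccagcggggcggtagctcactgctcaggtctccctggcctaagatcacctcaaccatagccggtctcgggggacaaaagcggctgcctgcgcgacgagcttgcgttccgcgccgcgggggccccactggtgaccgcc

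The *Klf1* window held 1 GATA match, 80 bases before the start, and no CACCC match. The *Gfi1b* window held 1 GATA match, 120 bases before the start, and 2 CACCC matches. The *Gata1* window held 0 GATA and 3 CACCC matches, and the *Gata2* window 0 and 1, while a second *Gata2* promoter, not shown, held 0 and 6. Of the 12 promoters of members, 3 had a GATA match and 9 a CACCC match, while 26.5% and 45.9% of all 32851 promoters of this length held one. The remaining GATA match was in a *Tal1* promoter, not shown, 205 bases before the start. A match describes letters in a window and was not tested as a binding site.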

How the data were processed

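RNA of whole embryos was measured on 4 one-colour Agilent arrays of 1 slide, read in 1 scan. The authors deposited the scanner output, whose processed intensity is linear and background-subtracted and is not scaled between arrays. The file headers name Feature Extraction 10.7.1.1 and the labels 9.5.1.1. A second deposited file holds linear intensity values of the same arrays, with a median of 27.6 in each column, and its log2 values correlated with those of the scanner output at 0.9997 to 0.9999 across probes, its direction and scale are thereby known, and its centring is that of quantile normalization, with a median difference of 0.0051 (log2).

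Spots flagged as outliers were dropped, log2 intensities of a probe's spots were averaged, and each array was centred on its 75th percentile. A gene was its brightest probe by the mean of the 4 arrays and entered a comparison if either array of the pair exceeded background. It was called changed at 1.5-fold or more from its measured value. Where 1 array was dim, the fold is given as a bound, against the higher of the dim value and the lowest value well above background on that array. Members were matched by the array's gene name. Other genes were named through RefSeq accessions, which matched 32994 of 56605 probes and renamed 1535, and coordinates of probes are mm9.

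limma 3.58.1 (lmFit, eBayes with an intensity trend) in R 4.3.3 was fitted to probes that exceeded background on 2 or more arrays, and p-values were adjusted over all of them by the Benjamini-Hochberg method. Python 3.11.15, numpy 2.4.6, pandas 2.3.3, matplotlib 3.10.9 and the data.table package (version 1.17.8) were used, and the fit and the fold calls were tested on simulated data. Only 1 array per group limits the precision. The members and lists were chosen with earlier results of these data known. The genes named were drawn from *Dyrk2*, the members, the other blood factors past the threshold and the brightest of them, the brightest gene and the largest rise and fall at each stage of each list among genes well above background on both arrays, sex chromosome transcripts and the 5 genes nearest to *Gata1* and to *Gata2*. The alternatives were quantile normalization, spike-in scaling (7 of 10 spike-in probes), no scaling, normexp with an offset of 50, the deposited table, the mean of all probes, stricter and no filters, a 2-fold threshold and limma without the trend.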

Additional observations from a re-analysis of the deposited data

How the results depend on the processing

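With no replicates, a value was read as moved when it changed by more than 0.20 (log2), the scanner's modelled error of a difference between 2 arrays. In a comparison of 9 members at E8.5, 2 changed direction under at least 1 alternative, *Zfpm1* and *Tal1*. At E10.5 and between the stages in WT 0 of 10 did, and between the stages on the arrays labelled *Dyrk2*-/- 1 of 10 did, *Zfpm1* with the mean of its probes. Spike-in scaling put the median of all genes at −0.58 for E8.5 and 0.15 for E10.5, and no scaling put it at −0.29 and −0.15.

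The median of the members at E8.5 was 1.56 under spike-in scaling, 1.85 without scaling, 0.71 with normexp and 1.84 with the mean of all probes, and at E10.5 it was 0.73 with normexp. With a filter on both arrays, 3 of 6 members were changed at E8.5 and 4 of 6 between stages in WT, since fewer genes enter. At a 2-fold threshold 5 were changed at E10.5. Spike-in scaling gave 5 higher (4 by their bounds) and 1 lower member at E8.5 and 8 higher and 0 lower at E10.5, no scaling 6 higher and 2 lower at E10.5, and the mean of all probes 6 higher and 1 lower at E8.5.

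limma's count of member probes called for genotype was 1 with quantile normalization (24 of all probes), 3 with spike-in scaling (37), 8 without scaling (729), 2 with normexp (25), 1 with the deposited table (40) and 10 with no filter (561). Of the 8 without scaling 6 were higher, of the 10 with no filter 8 were higher, and the cause was not tested. It stayed at 0 without the trend and with a filter on all 4 arrays. For stage it was 3 of 7 with a filter on all 4 arrays, where fewer probes enter.

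The difference of the genotype effect between stages, tried with alternatives chosen after seeing the data, moved under spike-in scaling to −2.33 for *Gata1*, 1.30 for *Zfpm1*, −1.78 for *Nfe2*, 1.07 for *Tal1*, 0.53 for *Lyl1* and 0.31 for *Gata2*, and with normexp to −1.39 for *Gata1* and −0.90 for *Nfe2*. Normexp with its offset draws dim values together. Of the other values of single members, 66 moved and 168 did not. Of 76 member values, 51 were well above background, and the rest have no order among themselves. No paired analysis was possible because each group has 1 array and so no replicates to pair, and limma took stage as a term.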
